A study of Mus musculus with 12 samples.

Results

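The genes described here are 50 genes of RNA polymerase I (Pol I) transcription and pre-ribosomal RNA processing, chosen by name as a known field of action of SIRT7. All 50 were found among the 21468 protein-coding genes of known strand in the RefSeq table of GRCm38.p6, the assembly behind mm10. Peaks of acetylated lysine 36 of histone H3 (H3K36ac) had been mapped by ChIP-seq in 3 WT and 3 Sirt7-/- samples, each with its own input library and numbered as replicates 2, 3 and 4 in each genotype. Every sample held 50000 spermatogonia-enriched testis cells of a different 129S1/Sv mouse at postnatal day (Pnd) 5, enriched by removal of interstitial cells and by differential plating, with no sort by a marker. The paper reports that most cells so isolated were positive for PLZF, a marker of undifferentiated spermatogonia, by flow cytometry, shown for WT cells. The Sirt7-/- mice lacked the gene in all tissues, so an effect inside the germ cells cannot be told apart from one of the surrounding testis. A gene was called when any part of a peak lay within 3000 bp of its start, and each list was read on its own.

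Ribosomes are assembled from a precursor RNA that Pol I copies from the ribosomal DNA repeats in the nucleolus. The precursor is cut, methylated and pseudouridylated by small nucleolar ribonucleoproteins (snoRNPs) and by assembly factors of the small and the large subunit, most of which are encoded by ordinary Pol II genes. SIRT7 is an NAD+-dependent deacylase concentrated in the nucleolus, where it associates with Pol I and its factor UBF, and H3K36ac is 1 of the histone marks it removes. Spermatogonia divide throughout life and depend on ribosome production for growth. The values below concern the Pol II promoters of these genes and not the ribosomal DNA itself, which was not analysed here.

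The lists held 906, 64 and 294 peaks in WT replicates 2, 3 and 4 and 2840, 2045 and 2591 peaks in Sirt7-/- replicates 2, 3 and 4, and WT replicate 3 stood apart with the shortest list. On average 2481 ± 374 protein-coding starts were called per Sirt7-/- sample and 433 ± 453 per WT sample (SD, n = 3 each), a ratio of 5.73 (two-sided p = 0.1 by an exact permutation test, below which 3 against 3 samples cannot go). The lists carry no read counts, and the number of reads left after filtering is not given in the sources used here, so no counting error can be set on a single call. Sirt7 itself had no promoter peak in any of the 6 lists, which therefore hold no check of the deletion. Of the marker genes of the labelled cell type, 5 of 14 (Zbtb16, Dazl, Gfra1, Uchl1 and Etv5) were called in at least 1 Sirt7-/- list and 0 in a WT list, while 1 of 6 Sertoli cell markers (Sox9) and 0 of 8 markers of Leydig, peritubular, endothelial and white blood cells were called, beside 19.3% of all starts in at least 1 Sirt7-/- list and 5.12% in a WT list. Most germ cell markers thus carried no peak, and the part of cell composition in the results below was not tested.

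More of the 50 genes had an H3K36ac promoter peak in each Sirt7-/- list than in any WT list. In the Sirt7-/- replicates 2, 3 and 4, 14, 9 and 10 of the 50 genes were called. The WT replicates 2, 3 and 4 had 4, 0 and 2 called genes. The groups did not overlap, and the means were 11 ± 2.65 against 2 ± 2 genes per sample (SD, n = 3 each). The ratio of the means was 5.5, beside 5.73 for all protein-coding starts in the same lists.

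Within each Sirt7-/- list, the share of the 50 genes with a peak was above the share of all protein-coding starts. Replicate 2 had 28.0% of the genes called (exact 95% binomial interval 16.2 to 42.5), beside 13.2% of all protein-coding starts. In replicate 3 it was 18.0% (8.58 to 31.4) beside 9.73%, and in replicate 4 it was 20.0% (10 to 33.7) beside 11.7%. The ratios of the shares were 2.12, 1.85 and 1.70, but only in replicate 2 did the whole interval of the 50 genes lie above the value of all starts. In the WT lists 8.0% (2.22 to 19.2), 0% (up to 7.11) and 4.0% (0.488 to 13.7) of the genes were called, beside 4.38%, 0.317% and 1.35% of all starts, so that no WT list separated the 50 genes from the rest. These intervals cover counting error over genes only.

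**Figure D1:**
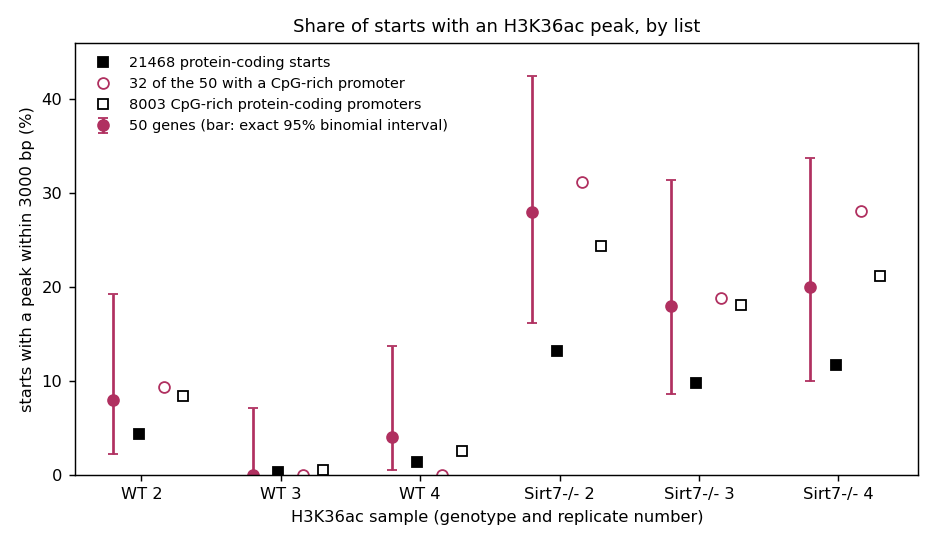
Share of gene starts with an H3K36ac peak within 3000 bp (y axis, percent) in each of the 6 lists (x axis), for the 50 genes with exact 95% binomial intervals, for all 21468 protein-coding starts, and for those with a CpG-rich promoter. The filled circles lie above the filled squares in all 3 Sirt7-/- lists, by 2.12, 1.85 and 1.70 times.

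The genes called in the 3 Sirt7-/- lists were mostly different ones. At least 1 Sirt7-/- list called 24 of the 50 genes (48.0%, beside 19.3% of all starts), yet at least 2 lists called 7 (14.0%, beside 10.3%) and all 3 lists called 2, Gar1 and Utp18 (4.0%, beside 5.09%). Of the 24 genes, 17 (70.8%, exact 95% binomial interval 48.9 to 87.4) had a peak in exactly 1 Sirt7-/- list, whereas 46.5% of all called protein-coding starts did. All 3 lists shared 8.33% of the 24 (1.03 to 27.0), beside 26.4% of all called starts, a value inside that interval. Replicate 2 alone called 8 genes, replicate 3 alone 4 and replicate 4 alone 5.

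Of the 24 genes, 4 also had a peak in a WT list. At least 2 Sirt7-/- lists and no WT list called 6 genes (12%, beside 6.47% of all starts), and all 3 Sirt7-/- lists and no WT list called the same 2 genes, Gar1 and Utp18 (4.0%, beside 2.45%). At least 1 WT list called 6 genes (12%, beside 5.12%), and 2 of these, Polr1d and Nol11, had a peak in a WT list only (4.0%, beside 0.475%). The remaining 24 genes had no promoter peak in any of the 6 lists (48.0%, beside 80.3% of all starts). No single gene could pass a test: with Fisher's exact test on 3 against 3 samples, Gar1 and Utp18 had p = 0.1, which 525 of the 21468 starts reached, and the value adjusted over all starts was 1. No start reached an unadjusted p under 0.05.

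**Figure D2:**
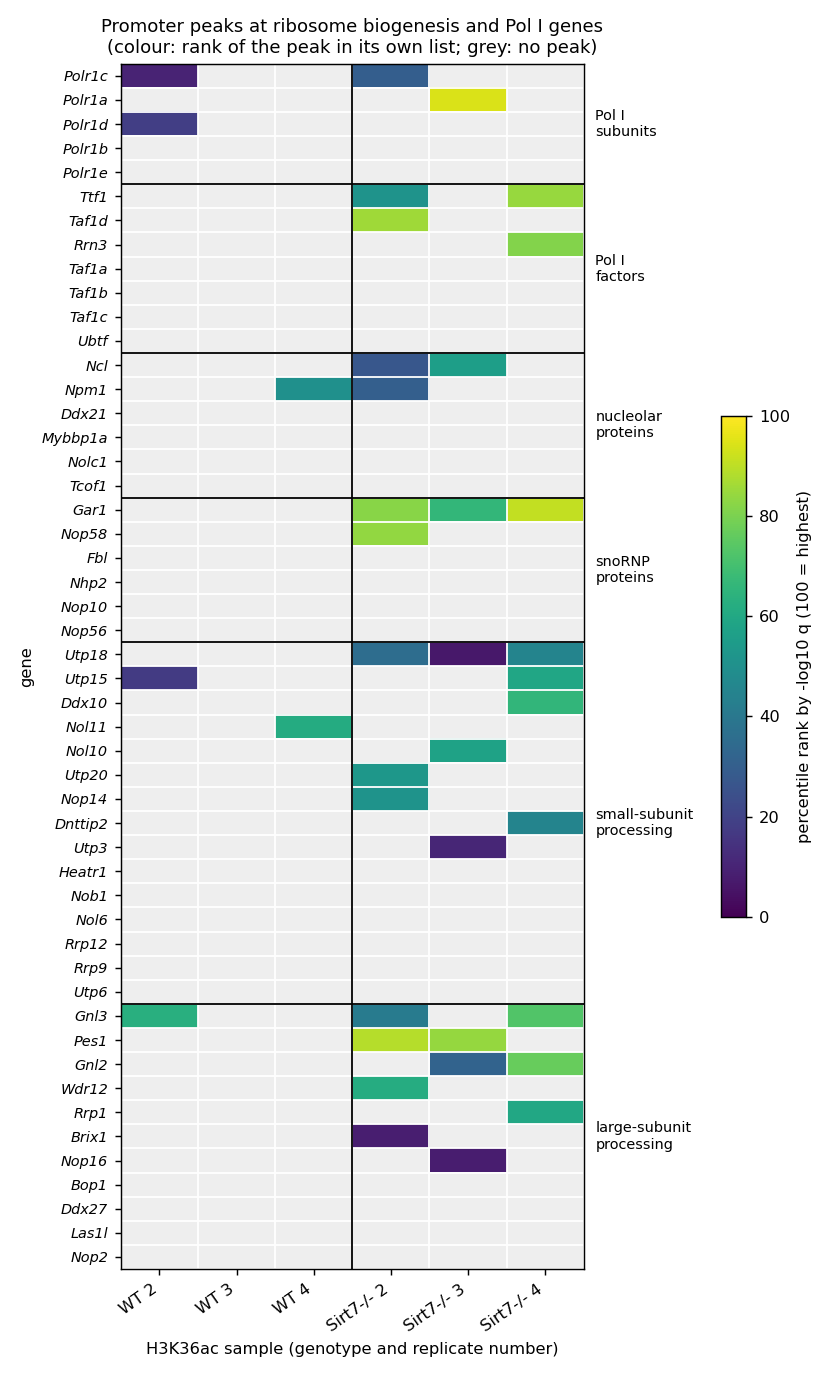
Promoter peaks at the 50 genes (rows, grouped by role) in the 6 samples (columns). Colour gives the percentile rank of the peak in its own list by the authors' -log10 q (100 is the highest), and grey means no peak. Gar1 and Utp18 are filled in all 3 Sirt7-/- columns, and WT replicate 3 has no filled cell.

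Of the 5 Pol I subunit genes, 2 (40.0%, beside 19.3% of all starts) were called in a Sirt7-/- list, 2 (40.0%, beside 5.12%) in a WT list and none in more than 1 Sirt7-/- list. Polr1a, which encodes the largest catalytic subunit, had a peak in Sirt7-/- replicate 3 only, and it was the member peak with the highest fold over input (6.50, 233 bp, rank 114 of 2045 peaks), singled out here after its value was seen. It lay at -265 bp to -33 bp from the start, nearer to the start of the opposite gene Ptcd3. Polr1c, a subunit that Pol I shares with Pol III, had overlapping peaks in WT replicate 2 (664 bp) and Sirt7-/- replicate 2 (945 bp). Both lay within 3000 bp of the start of the opposite gene Yipf3, which was nearer to the midpoint of the Sirt7-/- peak. With each peak given to its nearest start only, neither Polr1a nor Polr1c was called in a Sirt7-/- list. Polr1d, the partner of Polr1c in both enzymes, had a peak in WT replicate 2 only, at chr5:147077564-147077824 (261 bp, fold 4.09, rank 738 of 906), 979 bp inside the gene. Polr1b, the second largest subunit, and Polr1e, the subunit PAF53, had no peak in any list.

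The promoter of Polr1e is printed because PAF53 is a known substrate of SIRT7 whose own promoter had no peak. Like the others below, it is the RefSeq window on GRCm38.p6 from 250 bases before to 50 bases after the RefSeq start nearest to that of the gene table, read 5' to 3' along the gene. Capitals mark matches, on either strand, to the letters CCGGAAG (ETS), CACGTG (E-box), GGGCGG (Sp1), GCGCATGCG (NRF1), AAGATGGCG (YY1), CTCGCGAG (BANP) or TATAAA (the TATA box). Polr1e (chr4:45018359-45018658, plus strand) held 1 ETS and 2 Sp1 matches.
Polr1e: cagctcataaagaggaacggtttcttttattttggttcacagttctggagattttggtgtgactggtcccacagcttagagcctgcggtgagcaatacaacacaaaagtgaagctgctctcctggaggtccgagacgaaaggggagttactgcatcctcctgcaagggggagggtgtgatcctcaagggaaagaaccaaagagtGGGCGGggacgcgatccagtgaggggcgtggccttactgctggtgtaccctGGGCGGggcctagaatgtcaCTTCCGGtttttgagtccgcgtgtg

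Among the 7 Pol I factor genes, 3 (42.9%, beside 19.3% of all starts) were called in a Sirt7-/- list and none in a WT list, where 5.12% of all starts were. Ttf1, the factor that stops Pol I at the terminator, was the only one of them in 2 lists, with peaks of 263 bp in Sirt7-/- replicate 2 and 254 bp in replicate 4 that shared 248 bp, and it had none in replicate 3. Taf1d, part of the promoter selectivity factor SL1, was called in replicate 2 (462 bp), and Rrn3, which carries Pol I to SL1, in replicate 4 (268 bp). The Taf1d peak was nearer to the start of another gene, 4931406C07Rik. The other three SL1 genes, Taf1a, Taf1b and Taf1c, had no peak in any list. Ubtf, which encodes UBF, had none within 3000 bp of the start in the gene table, but peaks lay further inside the gene in all 3 Sirt7-/- lists and in WT replicate 2.

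Of the 6 genes of multifunctional nucleolar proteins, Ncl and Npm1 were called in a Sirt7-/- list (33.3%, beside 19.3% of all starts) and Ddx21, Mybbp1a, Nolc1 and Tcof1 were not. Ncl, which encodes nucleolin, had peaks of 398 bp in Sirt7-/- replicate 2 and 998 bp in replicate 3, which shared 257 bp. Npm1, the histone chaperone nucleophosmin, had a peak of 334 bp in WT replicate 4 (chr11:33162525-33162858, fold 5.08, rank 148 of 294) and 1 of 209 bp in Sirt7-/- replicate 2 (chr11:33162637-33162845, fold 3.96, rank 1979 of 2840). The Npm1 peaks overlapped by 209 bp and were the farthest from a start among the called genes, at 1284 bp and more inside the gene. The nearest gene outside the 3000 bp window was Nop10, with a peak at 3748 bp.

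The 6 genes named as known protein partners or substrates of SIRT7 were Polr1e, Rrp9, Fbl, Npm1, Mybbp1a and Ubtf. Apart from the Npm1 peaks just given, none of the 6 had a peak within 3000 bp of the start in the gene table in any list. Ubtf depended on the start used: with every RefSeq start counted, it was called in 3 Sirt7-/- lists and 1 WT list. By the start in the gene table, the group thus had 1 of 6 genes (16.7%) called in a Sirt7-/- list, near the 19.3% of all starts, and 1 of 6 in a WT list, beside 5.12%.

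Gar1, a core protein of the H/ACA snoRNPs that pseudouridylate ribosomal RNA, was the only gene called in all 3 Sirt7-/- lists whose peaks had no other protein-coding start within 3000 bp. Its peak lay at chr3:129830732-129831311 in Sirt7-/- replicate 2 (580 bp, fold 4.49, rank 505 of 2840). Replicate 3 had it at chr3:129830871-129831106 (236 bp, fold 5.07, rank 692 of 2045), and replicate 4 at chr3:129830704-129831096 (393 bp, fold 5.25, rank 235 of 2591). The 3 peaks overlapped each other by 226 bp to 365 bp and were centred 386 bp, 419 bp and 507 bp inside the gene, and no WT list had a peak there. Among the other five snoRNP genes, Nop58, a box C/D core protein, was called in Sirt7-/- replicate 2 (308 bp, rank 462 of 2840). Fbl, the methyltransferase fibrillarin, and Nop56, Nop10 and Nhp2 were called in no list.

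The promoter of Gar1 (chr3:129831347-129831646, minus strand) is printed as that of the gene called in all 3 Sirt7-/- lists with no shared start. It held 30 CpG dinucleotides, a ratio of observed to expected CpG of 1.01, and 1 ETS match. The 3 Gar1 peaks lay downstream of this window and did not overlap it.
Gar1: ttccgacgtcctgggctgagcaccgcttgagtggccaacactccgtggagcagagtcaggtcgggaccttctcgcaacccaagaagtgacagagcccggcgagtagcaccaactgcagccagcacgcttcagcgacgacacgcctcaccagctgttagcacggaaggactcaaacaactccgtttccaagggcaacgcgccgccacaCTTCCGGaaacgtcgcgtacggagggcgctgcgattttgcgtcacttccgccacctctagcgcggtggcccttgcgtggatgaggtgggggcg

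Of the 15 genes of small-subunit processing, 8 (53.3%) were called in a Sirt7-/- list and 2 (13.3%) in a WT list, beside 19.3% and 5.12% of all starts, but only Utp18 was in more than 1 Sirt7-/- list. Utp18 encodes a subunit of the small-subunit processome, the particle that forms on the 5' end of the precursor. Its peak lay at chr11:93885870-93886747 in Sirt7-/- replicate 2 (878 bp, fold 3.75, rank 1831 of 2840). In replicate 3 it lay at chr11:93885548-93886428 (881 bp, fold 3.95, rank 1913 of 2045), and in replicate 4 at chr11:93885272-93886844 (1573 bp, fold 4.16, rank 1421 of 2591). These peaks were wide but low in their lists, in contrast to those of Gar1. They also covered the side of the opposite gene Mbtd1, whose start was nearer to all 3 midpoints, so that Utp18 was called in no list when each peak went to its nearest start only.

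Utp15 had peaks in WT replicate 2 (650 bp) and Sirt7-/- replicate 4 (398 bp) that overlapped by 124 bp on the side of the opposite gene Ankra2. The start of Ankra2 was nearer to the midpoints of these peaks. Nop14 and Utp20 were called in Sirt7-/- replicate 2 only, Nol10 and Utp3 in replicate 3 only, and Ddx10 and Dnttip2 in replicate 4 only, with widths from 235 bp (Nol10) to 308 bp (Utp3). Nol11 had a peak in WT replicate 4 only, at chr11:107188925-107189164 (240 bp, fold 5.09, rank 114 of 294). The other six, Heatr1, Nob1, Nol6, Rrp12, Rrp9 and Utp6, had no peak in any list.

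The promoters of Utp18 (chr11:93885717-93886016, minus strand) and Rrp9 (chr9:106477059-106477358, plus strand) are printed together. Utp18 was taken as 1 of the genes called in most samples, and Rrp9 as a SIRT7 partner called in none. Both serve the small-subunit processome and lie opposite another gene. Utp18 held 1 E-box, 2 ETS and 1 Sp1 match, whereas Rrp9, whose protein is a SIRT7 substrate, held none of the 7 motifs.
Utp18: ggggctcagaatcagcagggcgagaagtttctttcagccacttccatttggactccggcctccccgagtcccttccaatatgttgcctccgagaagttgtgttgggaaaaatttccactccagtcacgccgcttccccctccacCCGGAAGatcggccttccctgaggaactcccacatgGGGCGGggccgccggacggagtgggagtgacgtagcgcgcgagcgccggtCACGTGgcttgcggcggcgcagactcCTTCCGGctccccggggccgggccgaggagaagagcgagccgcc
Rrp9: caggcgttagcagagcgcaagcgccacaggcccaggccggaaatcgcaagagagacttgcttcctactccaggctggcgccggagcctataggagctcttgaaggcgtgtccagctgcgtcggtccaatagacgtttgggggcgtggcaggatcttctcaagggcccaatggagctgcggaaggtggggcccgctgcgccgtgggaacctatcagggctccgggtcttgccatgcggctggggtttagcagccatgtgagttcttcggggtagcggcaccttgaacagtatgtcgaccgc

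The 11 genes of large-subunit processing had 7 genes (63.6%) called in a Sirt7-/- list, 3 (27.3%) in at least 2 of them and 1 (9.09%) in a WT list, beside 19.3%, 10.3% and 5.12% of all starts. Gnl3, the GTPase nucleostemin, had peaks of 819 bp in WT replicate 2, 620 bp in Sirt7-/- replicate 2 and 544 bp in Sirt7-/- replicate 4, which all covered its start and overlapped each other by at least 505 bp. This was the most often called gene with a WT peak, and the start of the opposite gene Pbrm1 also lay within 3000 bp of the peaks. Pes1, the scaffold of the PeBoW complex, had peaks of 235 bp and 226 bp in Sirt7-/- replicates 2 and 3 that shared 225 bp and ranked 317 of 2840 and 321 of 2045. Gnl2, a GTPase of pre-ribosome export, had peaks of 609 bp and 410 bp in Sirt7-/- replicates 3 and 4. Wdr12, another PeBoW subunit, and Brix1 were called in replicate 2 only, Nop16 in replicate 3 only and Rrp1 in replicate 4 only. The Nop16 peak was nearer to the start of another gene, Higd2a. Bop1, the remaining PeBoW subunit, and Ddx27, Las1l and Nop2 were called in no list.

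The promoters of Gnl3 (chr14:31019082-31019381, minus strand) and Pes1 (chr11:3963725-3964024, plus strand) are printed as the next after Gar1 and Utp18. The order was by number of samples and then by mean percentile rank, so the choice rests on their peaks. They were also the opposite ends of G+C share among the genes with a window that were called in 2 Sirt7-/- lists. Gnl3 had 80.3% G+C, 44 CpG dinucleotides and 10 Sp1 matches, several of them overlapping. Pes1 had 46% G+C, 9 CpG dinucleotides, 1 E-box and 1 TATA match, and its peaks lay wholly upstream of the start. The TATA match lay near the upstream end of the window, away from the start.
Gnl3: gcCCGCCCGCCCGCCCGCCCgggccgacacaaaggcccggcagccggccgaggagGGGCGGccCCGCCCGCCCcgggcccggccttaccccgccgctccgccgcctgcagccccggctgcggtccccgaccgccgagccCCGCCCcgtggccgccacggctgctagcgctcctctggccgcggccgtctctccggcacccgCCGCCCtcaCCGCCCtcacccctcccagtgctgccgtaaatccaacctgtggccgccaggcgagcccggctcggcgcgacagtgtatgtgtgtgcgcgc
Pes1: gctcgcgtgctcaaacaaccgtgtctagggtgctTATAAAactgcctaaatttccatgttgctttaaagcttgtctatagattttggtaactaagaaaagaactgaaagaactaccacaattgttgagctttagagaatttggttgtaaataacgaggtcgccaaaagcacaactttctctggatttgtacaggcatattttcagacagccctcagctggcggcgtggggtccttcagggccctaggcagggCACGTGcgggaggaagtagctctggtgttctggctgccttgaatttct

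Across roles, the 50 genes had 39 promoter peaks, 33 in Sirt7-/- and 6 in WT lists, with never more than 1 per gene and list. Most lay just inside the gene: 27 of 39 (69.2%) had their midpoint downstream of the start, the median midpoint was 219.5 bp downstream, and 12 peaks covered the start. Here too a gene called in several lists counted once for each. Midpoints of all promoter peaks are not given here, so this position need not be particular to the 50 genes. Where a gene had peaks in more than 1 sample, all 16 pairs of peaks at the same gene overlapped at least in part. Their midpoints were 5.5 bp (Pes1) to 441 bp (Ncl) apart. The folds over input ran from 3.62 (Brix1) to 6.50 (Polr1a).

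**Figure D3:**
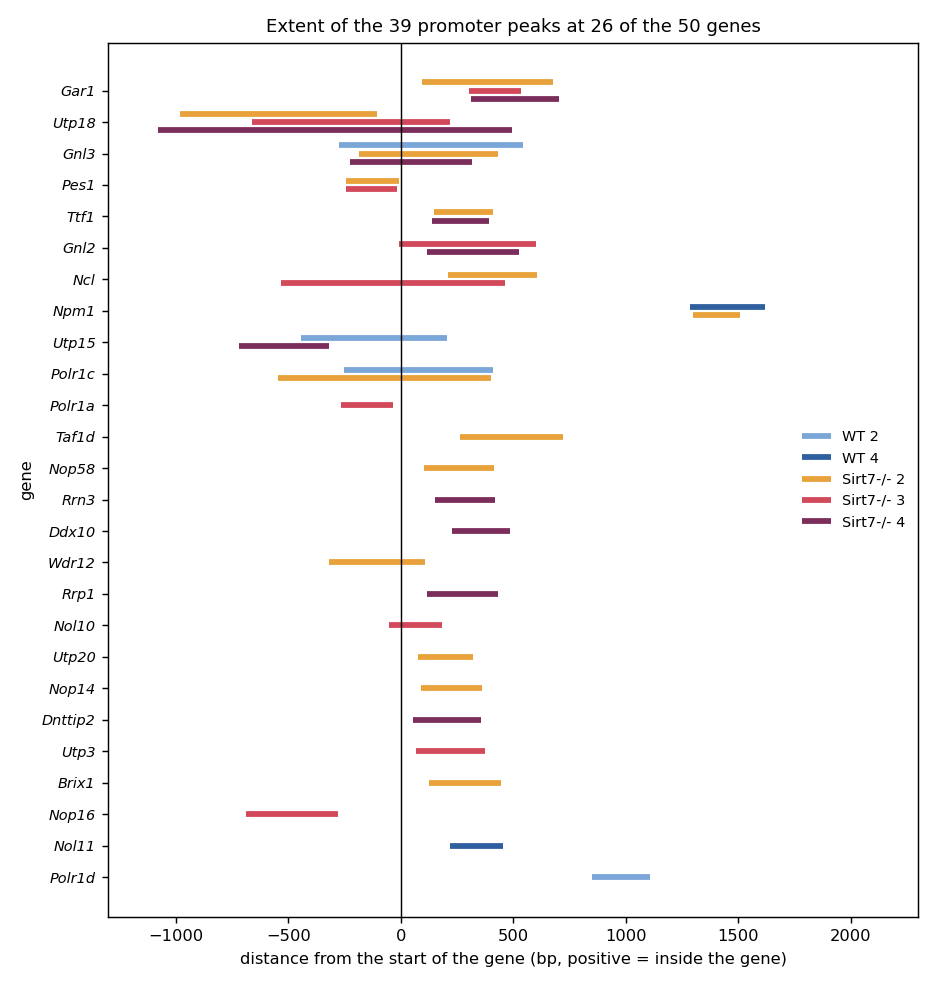
Extent of the 39 promoter peaks at the 26 called genes, as distance from the start of the gene in bp (x axis, positive inside the gene), with 1 bar per sample. The 3 Gar1 peaks lie downstream of the start, the 3 Utp18 peaks reach upstream, and the Npm1 peaks lie farthest inside the gene, from 1284 bp.

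Peaks at these genes had a smaller median width than all promoter peaks in each Sirt7-/- list. Their median widths were 361 bp, 308 bp and 354 bp in replicates 2, 3 and 4, beside 492 bp, 458 bp and 468 bp for all promoter peaks. The means of these medians were 341 ± 28.5 and 473 ± 17.5 bp (SD, n = 3 lists), and the 2 sets of medians did not overlap. The SD covers the spread between lists only, and the medians of these genes rested on 14, 9 and 10 peaks. Each lay inside the middle 50% of all promoter peaks, whose lower ends were 308 bp, 294.5 bp and 304 bp. The 4 peaks in WT replicate 2 went the other way, with a median of 657 bp beside 376 bp and a median percentile rank of 18.0 beside 50.5, and the 2 in WT replicate 4 had 287 bp beside 300 bp. Widths of single peaks ran from 209 bp (Npm1) to 1573 bp (Utp18). By rank within the Sirt7-/- lists their median percentiles were 51.5, 56.2 and 69.3 (100 is the highest), beside 51.5, 50.8 and 52.6 for all promoter peaks.

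**Figure D4:**
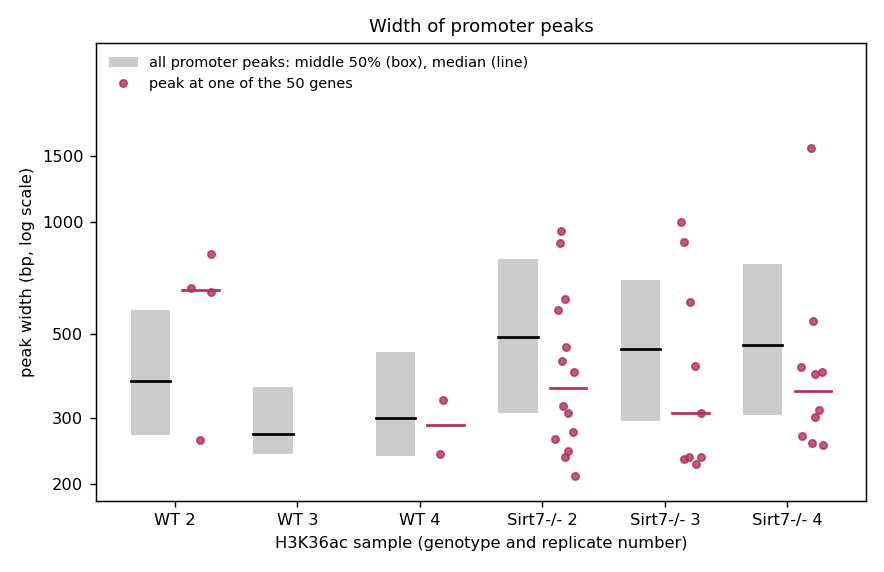
Width of promoter peaks (y axis, bp, log scale) in each list (x axis). Points are peaks at the 50 genes with a line at their median, and grey boxes are the middle 50% of all promoter peaks with their median in black. In the 3 Sirt7-/- lists the coloured medians (361 bp, 308 bp and 354 bp) lie below the black ones, and in WT replicate 2 the coloured median (657 bp) lies above.

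Pooled over the 3 Sirt7-/- lists, peaks of the 50 genes at promoters shared with another gene had a larger median width and a lower median percentile. The 13 Sirt7-/- peaks whose window also held another protein-coding start, at 10 genes such as Utp18, Gnl3 and Polr1c, had a median width of 462 bp and a median percentile of 45.2. The 20 at 14 genes with no such neighbour, Gar1, Pes1 and Ttf1 among them, had 285 bp and 62.7. A gene called in several lists counted once for each, as Utp18 did 3 times. The peak with the highest percentile, that of Polr1a (94.5), was a shared one. The same split was not made over all promoter peaks. Of the 13 genes with a protein-coding start of the opposite strand within 1000 bp, 10 (76.9%) were called in a Sirt7-/- list, beside 41.6% of the 2330 such starts among all genes. Without such a neighbour 14 of 37 genes (37.8%) were called, beside 16.5% of 19138 starts. All 3 Sirt7-/- lists called 1 gene in each class (7.69%, beside 11.8%, and 2.70%, beside 4.27%), too few to set against the shares of all starts. Host genes of intronic snoRNAs, which guide the modification of ribosomal RNA, were 5 of the 50, namely Gnl3, Taf1d, Ncl, Nop58 and Nop56, and all but Nop56 were called in a Sirt7-/- list (80.0%, beside 37.8% of 368 hosts among all genes), but none in all 3 lists, beside 9.78% of the hosts.

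The promoters of the 50 genes were richer in CpG than those of most genes. RefSeq promoter windows were found for 42 of the 50 genes and 17486 protein-coding genes in all, and for Ubtf the window belonged to a start inside the gene. A window need not overlap the peak of its gene, as it did not for Gar1, so these values describe promoters and not the sequence under the peaks. A window was counted as CpG-rich at an observed to expected CpG ratio of at least 0.6 and at least 50% G+C, and 32 of the 42 (76.2%) met this, beside 45.8% of all windows. Among CpG-rich windows alone, 31.2%, 18.8% and 28.1% of the 32 genes were called in Sirt7-/- replicates 2, 3 and 4, beside 24.4%, 18.1% and 21.2% of all 8003. Among the windows that were not CpG-rich, 30%, 20.0% and 0% of 10 genes were called in these lists, beside 3.79%, 2.56% and 3.76% of all 9483. In at least 1 Sirt7-/- list 56.2% of the 32 CpG-rich genes were called, beside 35.1%, and 40.0% of the other 10, beside 5.98%. In at least 2 lists it was 15.6% of the 32, beside 19.2%. The median CpG ratio was 0.862 for the 24 called genes with a window and 0.775 for the 18 never called, and CpG-rich windows made up 75% and 77.8% of them. The part of base composition in the calls was not tested.

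The ETS letters CCGGAAG occurred in 19 of the 42 windows (45.2%), beside 11.9% of all protein-coding windows, and CACGTG in 7 (16.7%), beside 7.91%. GGGCGG occurred in 26 (61.9%, beside 46.3%) and TATAAA in 2 (4.76%, beside 13.3%). GCGCATGCG was found in 2 (4.76%, beside 2.41%), and neither AAGATGGCG nor CTCGCGAG in any, beside 1.92% and 1.31%. The ETS letters were present in 9 of the 24 called genes (37.5%) and in 10 of the 18 never called (55.6%), so they were no more frequent in called genes.

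The rest of the pathway was counted in the same way. Of 116 other genes of ribosome biogenesis, 45 (38.8%, beside 19.3% of all starts) were called in at least 1 Sirt7-/- list, 20 (17.2%, beside 10.3%) in at least 2 and 10 (8.62%, beside 5.09%) in all 3, and 14 (12.1%, beside 5.12%) in a WT list. Those called most often were Exosc5, Utp4, Noc4l, Ddx51, Ddx31, Mrto4 and Isg20l2, each in all 3 Sirt7-/- lists and 1 WT list, where Noc4l and Ddx51 lie side by side. In 3 samples each were Ddx54 and Exosc8 (2 Sirt7-/- and 1 WT) and Pno1, Nmd3 and Xrn2 (3 Sirt7-/-), of which all but Ddx54 were named after their values were seen. Of 86 genes of cytosolic ribosomal proteins, 48 (55.8%) were called in at least 1 Sirt7-/- list and 13 (15.1%) in all 3. Of 78 genes of mitochondrial ribosomal proteins 28 (35.9%) were called in at least 1, and 4 (5.13%) in all 3, a share near the 5.09% of all starts. Exactly 1 list held 55.6% of the called other pathway genes, 43.8% of the called cytosolic and 71.4% of the called mitochondrial ribosomal protein genes, beside 70.8% of the called genes among the 50.

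**Figure D5:**
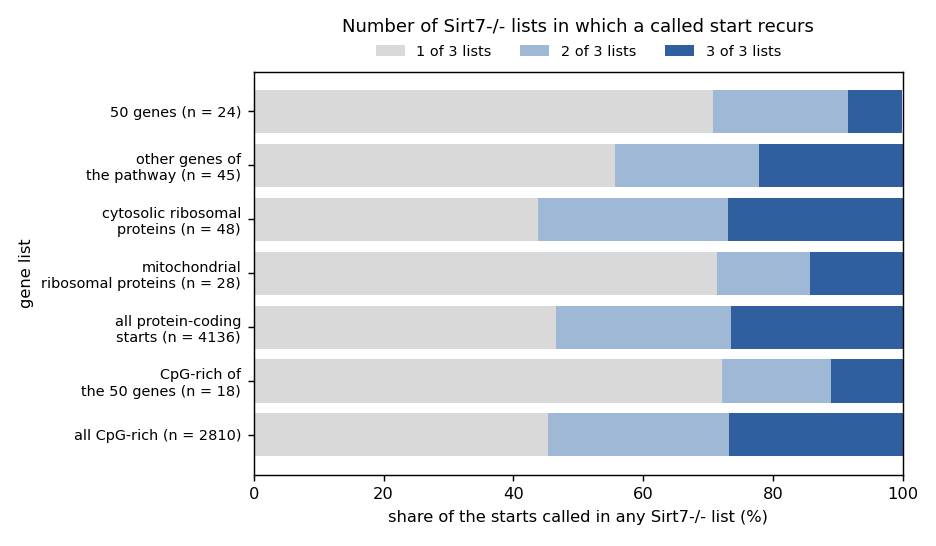
Share of the starts called in any Sirt7-/- list (x axis, percent) that were called in 1, 2 or all 3 of the lists, for 7 gene lists (y axis, with the number of called starts). The 50 genes have 70.8% in a single list, beside 46.5% of all called protein-coding starts.

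When only the 64 highest peaks of each list were kept, as many as the shortest list held, none of the 50 genes was called in any sample. At that length 0.284% to 0.349% of all starts were called per list, which is less than 1 in 50, so this count says nothing about the 50 genes. The lists give no coverage at the 24 genes without a peak, so a gene without a call may still carry the mark below the threshold.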

How the data were processed

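H3K36ac ChIP-seq had been done on 3 WT and 3 Sirt7-/- samples, grouped by their labels. The authors used Bowtie2 and mm10 for alignment, discarded duplicates and reads of mapping quality under 30, and used MACS2 2.2.5 (broad cutoff 0.1) to call peaks for each sample over its own input, with neither pooling nor a spike-in factor. The deposited lists give positions, a score that was not used, a ratio (fold over input) and -log10 values of p and q. These compare a peak with others of its list only, and hold no coverage. The study states the clean reads of each library before duplicates were removed, but the reads behind the calls are not given in the sources used here.

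Gene starts (1 per gene, 49943 genes) were those of RefSeq on GRCm38.p6. Strand was taken from the RefSeq promoter windows or, for 8 of the 50 genes and 3976 protein-coding genes in all, from GENCODE vM39 by symbol and chromosome. Both sources were equal at 15728 of 15832 protein-coding genes, and 21468 of 21887 had a strand. Peaks were ranked by -log10 q. Samples were compared by an exact permutation test over 20 assignments, and genes by Fisher's exact test with Benjamini-Hochberg adjustment over all starts, with no test over the 50 genes as a list.

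The genes and lists were chosen with earlier results of these data known. Of 119 other pathway symbols, 116 were found. By rule, positions and ranks are given for genes called in at least 4 samples or in all 3 Sirt7-/- samples, those called in WT only and the SIRT7 partners. Other widths and ranks were chosen after they were seen. Alternatives were windows of 1000 bp and 5000 bp, a -log10 q of at least 2, a common minimum of -log10 p, equal list lengths, either gene end as the start, the nearest start only, each replicate left out and a replicate block. The calling was tested on simulated peaks (Python 3.11.15, with pandas 2.3.3, NumPy 2.4.6, SciPy 1.17.1 and matplotlib 3.10.9).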

Additional observations from a re-analysis of the deposited data

Results flagged for a closer look

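Ubtf drew attention by peaks outside the promoter window. UBF, its product, opens the ribosomal DNA for Pol I and is a partner of SIRT7. In the 3 Sirt7-/- samples a peak lay inside the gene, more than 3000 bp from the start in the gene table. The peak spanned chr11:102316978-102317622 in replicate 2 (645 bp, fold 4.05, rank 1343 of 2840), chr11:102316945-102318697 in replicate 3 (1753 bp, fold 4.69, rank 1030 of 2045) and chr11:102316917-102318812 in replicate 4 (1896 bp, fold 5.43, rank 162 of 2591). By width the last pair ranked 24 and 32 in their lists, wider than any promoter peak at the other genes. WT replicate 2 had a peak of 266 bp at chr11:102318653-102318918 (fold 3.97, rank 890 of 906), and the other WT lists had none. RefSeq gives 6 further starts for Ubtf, of which 1, 2 and 2 lay inside the peaks of the Sirt7-/- replicates 2, 3 and 4. With every RefSeq start counted, a rule added after the data were seen, Ubtf was called in all 3 Sirt7-/- lists and 1 WT list.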

How the results depend on the processing

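The difference between genotypes in members called per sample (9) stayed positive under the other windows, the -log10 q minimum, either gene end, the nearest start only and any RefSeq start, the last chosen after seeing the data. It was 5.33 with the same minimum of -log10 p and 0 with the same number of peaks. With replicates left out in turn it ran from 7.5 to 10.

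Over all protein-coding starts the difference of 2048 became -5.67 with the same number of peaks, a setting that makes the lists equally long (exact permutation test, two-sided, p = 0.2). It ran from 1866 to 2302 with a replicate left out. The correlations of same-numbered WT and Sirt7-/- samples were 0.0281, 0.0197 and 0.00767, and those of samples with unlike numbers ran from -0.0275 to 0.00912. They do not measure how far the lists shared calls: 1099 starts were called in a WT list, and 102 of these in no Sirt7-/- list. For each WT sample the same-numbered value was the highest, but Sirt7-/- replicate 4 had a higher value with WT replicate 3 (0.00912) than with WT replicate 4 (0.00767). All values were small, and whether the numbers mark pairs was not tested. With same-numbered samples taken as pairs (the replicate block), the mean difference was 2048 (exact sign-flip test, p = 0.25, the smallest that 3 pairs allow).

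Genes in all 3 Sirt7-/- lists fell from 2 to 1 (Gar1) with a -log10 q of at least 2, with the same minimum of -log10 p and with the nearest start only, and to 0 with the same number of peaks. The count with no WT peak changed in the same way, to 1, 1, 1 and 0. With replicates left out each ran from 2 to 4, where both remaining Sirt7-/- lists stood for all 3 (the first count was 4 without replicate 3 or 4, the second without replicate 4). Genes in at least 2 Sirt7-/- lists went from 7 to 4 with a -log10 q of at least 2, to 2 with the same minimum of -log10 p and to 0 with the same number of peaks, and from 3 to 7 with replicates left out. Here 3 is without Sirt7-/- replicate 2, and 4 without replicate 3 or 4. Genes in a WT list went from 6 to 3, 3 and 0 under these settings, and from 2 (without WT replicate 2) to 6.

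The mean ratio of the share of the 50 genes to that of all starts (1.89) was 2.10 within 5000 bp, 1.67 with the nearest start only and 0 with the same number of peaks, and 1.78 to 1.99 with replicates left out. The mean of the median widths (341 bp) was 372 bp within 5000 bp, 293 bp with a -log10 q of at least 2, 371 bp with either end as the start, 296 bp with the nearest start only and 384 bp with any RefSeq start, and 331 bp to 357 bp with replicates left out. The mean of the median percentile ranks (59.0) was 74.7 with the same minimum of -log10 p, and 53.8 to 62.8 with replicates left out. Width could not be given with the same number of peaks, which left no member peak. The causes were not tested.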
